A study of Mus musculus with 6 samples.

Results

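The genes described here take fatty acids up into the heart and burn them in mitochondria and peroxisomes, 35 genes of the 49315 in the deposited table, taken by name for their place in the pathway, with earlier results of these data known. Each of the 35 symbols matched 1 Ensembl gene, and all 35 had enough counts to be tested. RNA was sequenced from the hearts of 6 C57BL/6 mice. The knock-in group is 3 hearts of conditional knock-in mice with the Txnip C247S mutation, in which a cysteine of the thioredoxin-interacting protein is replaced by a serine. The wild-type group is 3 hearts with wild-type Txnip. The labels give MerCreMer, a Cre recombinase switched on by tamoxifen, and 4-hydroxytamoxifen treatment for all 6 hearts. They state neither the promoter of the recombinase nor whether the wild-type hearts carried it, so if it was absent there, its effect and that of the mutation cannot be told apart. The sources used here give neither age nor sex. Each library is from a separate heart, so p-values measure the spread between hearts.

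The heart muscle cell draws most of its energy from fatty acids. Lipoprotein lipase frees them from circulating triglyceride, and membrane and cytosolic carrier proteins bring them in. An acyl-CoA synthetase activates them, and the carnitine shuttle, which malonyl-CoA inhibits at its first enzyme, carries them into the mitochondrion. There each turn of beta-oxidation takes an acyl-CoA through a dehydrogenase, a hydratase, a second dehydrogenase and a thiolase. Auxiliary isomerases and a reductase deal with the double bonds of unsaturated fatty acids, and the electron transfer flavoproteins pass electrons on to the respiratory chain. Txnip, an alpha-arrestin that binds thioredoxin and restrains glucose uptake, stands outside this pathway.

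Library totals lay between 14146048 and 15620476 counts. Txnip, the targeted gene, had 438, 391 and 429 CPM (counts relative to library size, scaled between libraries by the TMM method) in the knock-in hearts, against 724, 791 and 741 CPM in the wild-type hearts (log2 fold change −0.84 ± 0.09, SE; edgeR adjusted p = 0.00379). A gene count does not read the mutated base, so the allele itself is not checked by it. All 10 cardiomyocyte markers were counted in every heart. Their summed level was 72657 to 77880 CPM in the knock-in and 65140 to 68620 CPM in the wild-type hearts, ranges that did not overlap. Of the 10 log2 fold changes 7 were positive and 3 negative, with a median of 0.085. The 1 called marker was Myl2, at 15156, 15800 and 15272 CPM in the knock-in and 10501, 11119 and 9954 CPM in the wild-type hearts. With Myl2 left out of the sum, the ranges overlap. Of the 8 adipocyte markers, 1 had enough counts to be tested, Adipor2, at 99.9 to 117 CPM in the knock-in and 99.6 to 106 CPM in the wild-type hearts. Plin1 and Lep had 0 counts in all 6 hearts and Adipoq at most 1. The 8 skeletal muscle markers summed to 3182 to 4486 CPM in the knock-in and 3134 to 4223 CPM in the wild-type hearts, nearly all from Ckm and Acta1, which heart muscle also expresses. Acta1 had 1225, 130.2 and 228 CPM in the knock-in and 778, 639.9 and 399.8 CPM in the wild-type hearts, highest in knock-in replicate 1. Myh2 had 0 counts in all hearts, Myh4 at most 1, and Myh1 15 counts in knock-in replicate 1 and 0 elsewhere. Mitochondrially encoded genes took 22.9% to 24.1% of the counts in the knock-in hearts and 23.4% to 28.0% in the wild-type hearts, the highest share being that of wild-type replicate 3.

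Of the 35 genes, 1 passed the test across the whole table. Ech1, an isomerase of unsaturated acyl-CoA, rose 1.47-fold in the knock-in hearts (log2 fold change 0.56 ± 0.09, SE; edgeR adjusted p = 0.0399). None of the 35 was called lower. In the table as a whole, 0.11% of the 12777 tested genes were called higher and 0.188% lower, 0.297% in all. At an unadjusted p under 0.05, 7 of the 35 had higher and 0 had lower levels in the knock-in hearts, against 4.74% and 5.23% of all tested genes, or 9.97% in both directions. Those 7 were Ech1, Decr1, Etfb, Fabp3, Acaa2, Hadha and Slc25a20. DESeq2 called 4 of the 35 higher, Ech1, Decr1, Etfb and Fabp3, beside 0.556% of the genes it tested, with 0.615% called lower and 1.17% in all. By limma-voom 0 of the 35 were called, with 7 at an unadjusted p under 0.05, beside 0.0548% of all genes called higher and 0.0861% lower, 0.141% in all.

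The log2 fold changes of the 35 were small and mostly positive. They ran from −0.26 for Lpl to 0.56 for Ech1, with a median of 0.15, beside a median of −0.007 over all tested genes. In total 27 were positive and 8 negative, where 48.3% of all tested genes were positive and 51.7% negative. In 12 of the 35 the 3 knock-in values all lay above the 3 wild-type values, as in 8.12% of all tested genes, and in 0 did they all lie below, as in 7.99% (16.1% for both directions). The 8 negative values belonged to Lpl, Ehhadh, Acacb, Echs1, Crat, Slc27a1, Etfa and Slc22a5. In bulk tissue, fewer cells of a type and less RNA per cell cannot be told apart.

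**Figure D1:**
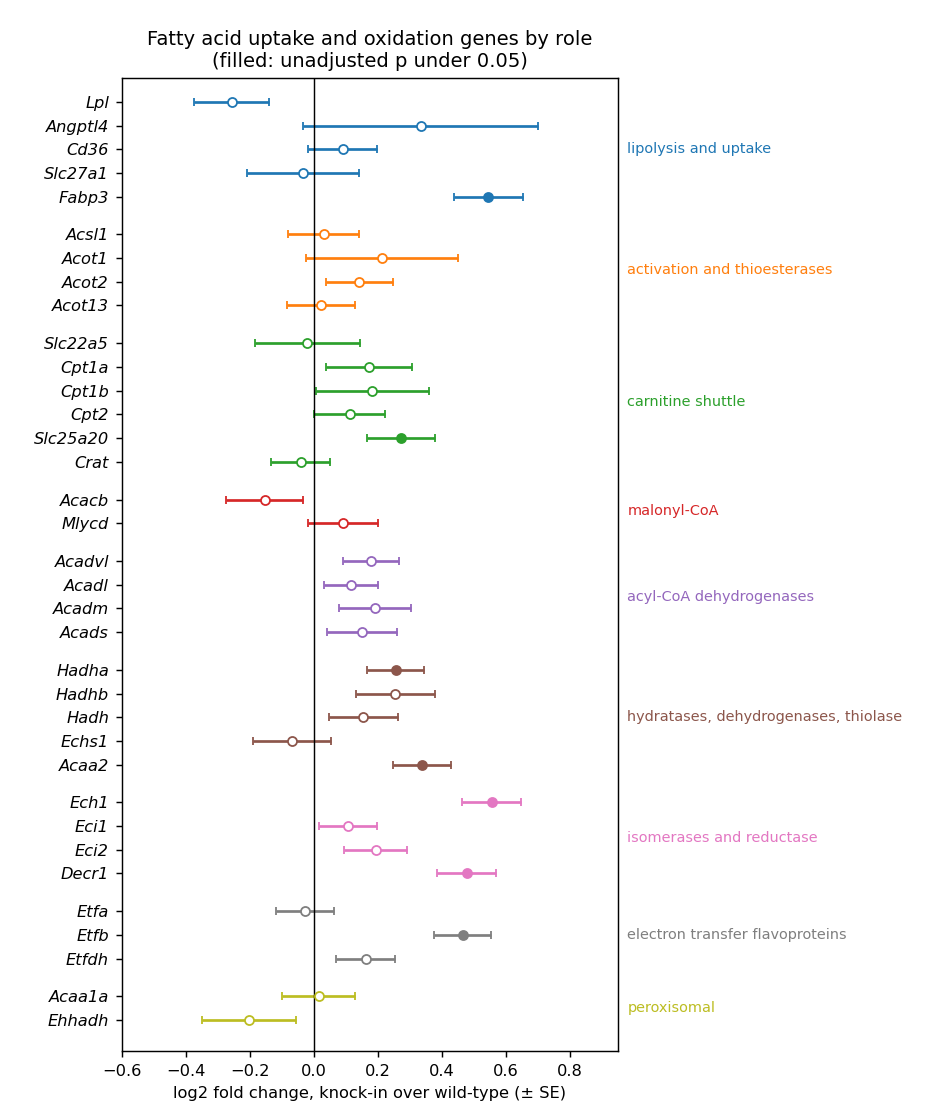
Log2 fold changes (knock-in over wild-type, x axis, bars are SE) of the 35 genes, grouped by role down the page, with filled points for an unadjusted p under 0.05. The 7 filled points lie between 0.26 and 0.56, and the 4 isomerase and reductase genes are all to the right of 0.

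Single hearts differed along the pathway. Knock-in replicate 2 held the highest value of 23 of the 35 genes, and wild-type replicate 3 the lowest value of 12. The median deviation of the 35 genes from their own means over all hearts was −0.025, 0.20 and 0.062 in knock-in replicates 1 to 3 on the log2(CPM + 1) scale. In wild-type replicates 1 to 3 it was −0.081, −0.027 and −0.082. Knock-in replicate 1 thus stood among the wild-type hearts by this measure, at the level of wild-type replicate 2. The genes took 2.49%, 2.74% and 2.66% of all counts in the knock-in hearts and 2.36%, 2.51% and 2.52% in the wild-type hearts. With mitochondrially encoded genes left out of the total, the shares were 3.23%, 3.61% and 3.48% in the knock-in and 3.12%, 3.28% and 3.49% in the wild-type hearts, and wild-type replicate 3 then lay above knock-in replicates 1 and 3. Without knock-in replicate 2 the median log2 fold change of the 35 was 0.11, and without knock-in replicate 1 it was 0.19.

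**Figure D2:**
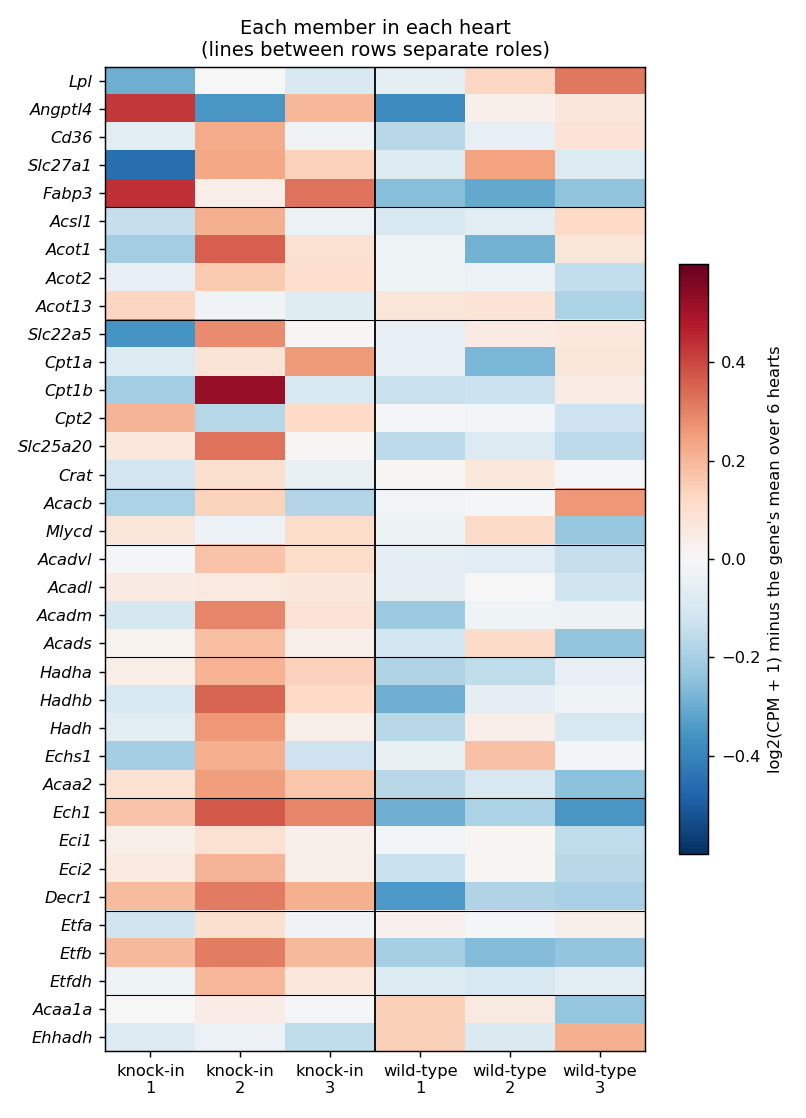
Log2(CPM + 1) of each of the 35 genes in each heart, minus the mean of that gene over the 6 hearts (colour scale), with knock-in hearts on the left, wild-type hearts on the right and roles separated by lines. Red prevails in knock-in replicate 2, which held the highest value of 23 genes, while Fabp3 was higher in knock-in replicates 1 and 3.

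Among the genes of lipolysis and uptake, 1 of 5 had an unadjusted p under 0.05. This was Fabp3 (ENSMUSG00000028773, chromosome 4, 130308595 to 130315463, GRCm38), the fatty acid-binding protein of heart muscle that carries fatty acids through the cytosol. It had 4555, 3455 and 4221 CPM in the knock-in hearts, against 2817, 2715 and 2845 CPM in the wild-type hearts. All 3 knock-in values lay above all 3 wild-type values, and the lowest of them came from knock-in replicate 2, the reverse of most other genes here. The log2 fold change was 0.55 ± 0.11 (SE), with an adjusted p of 0.0847 by edgeR and 0.00317 by DESeq2, and of 0.00521 by edgeR without knock-in replicate 2. Over all alternatives that p ranged between 3.64e-05 and 0.430. Of the 31-base words of its transcript 50.1% also occur in other genes, chiefly in the pseudogene Fabp3-ps1, so its count can lose or gain reads. Fabp3-ps1 itself had 326, 128 and 258 counts in the knock-in and 244, 245 and 156 in the wild-type hearts. Fabp3 had 39196 to 70012 counts.

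Lpl, the lipoprotein lipase, had the lowest log2 fold change of the 35 genes, −0.26 ± 0.12 (SE; adjusted p = 0.501). Its values were 4782, 5875 and 5495 CPM in the knock-in hearts and 5617, 6375 and 7300.3 CPM in the wild-type hearts, and the groups overlapped through knock-in replicate 2 and wild-type replicate 1. Angptl4, a secreted inhibitor of that lipase, was scarce at 1 to 2 CPM (0.33 ± 0.37). Cd36, the fatty acid translocase of the cell membrane, stood at 1402 ± 158 CPM in the knock-in and 1318 ± 113 CPM in the wild-type hearts (SD, n = 3 each; log2 fold change 0.09 ± 0.11, SE). Slc27a1, the transport protein FATP1, had −0.032 ± 0.18.

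Activation and its reversal showed 0 of 4 genes at an unadjusted p under 0.05. Acsl1, the main acyl-CoA synthetase of heart, had a log2 fold change of 0.032 ± 0.11 (SE). The thioesterases, which split acyl-CoA back to free acid, had 0.022 ± 0.11 for Acot13, 0.14 ± 0.10 for the mitochondrial Acot2 and 0.21 ± 0.24 for the cytosolic Acot1. Acot13 had the highest level per length of the 4, at 969, 881 and 859 TPM in the knock-in and 958, 966 and 778 TPM in the wild-type hearts. TPM are counts divided by the length of all exons of a gene and scaled to the same total in each heart. Acot2 stood at 42.9, 50.1 and 48.6 TPM in the knock-in and 44.9, 44.7 and 40.1 TPM in the wild-type hearts. Acot1 stood at 1.71, 2.83 and 2.28 TPM in the knock-in and 2.07, 1.65 and 2.20 TPM in the wild-type hearts. Both neighbours on chromosome 12 overlapped between the genotypes. They are near-copies, with 29.9% of the words of Acot2 found in Acot1, so their values are uncertain.

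In the carnitine shuttle, 1 of 6 genes had an unadjusted p under 0.05. Slc25a20, the carrier that swaps acylcarnitine for carnitine across the inner membrane, had 192, 231 and 185 CPM in the knock-in hearts, against 165, 174 and 165 CPM in the wild-type hearts. The groups did not overlap (log2 fold change 0.27 ± 0.11, SE; adjusted p = 0.424). Cpt1b and Cpt1a, the muscle and liver forms of the transferase that commits acyl groups to the mitochondrion, both overlapped between the genotypes. Cpt1b had 61.9, 103 and 66.9 CPM in the knock-in hearts and 65.3, 65.4 and 73.8 CPM in the wild-type hearts. Its highest value came from knock-in replicate 2, and its log2 fold change of 0.18 ± 0.18 turned to −0.073 without that heart. Cpt1a had 26.9, 30.2 and 34.3 CPM in the knock-in hearts and 27.6, 23.4 and 30.1 CPM in the wild-type hearts (0.17 ± 0.14). Per length, Cpt1b stood at 5.80 ± 1.75 times the level of Cpt1a in the knock-in and 5.75 ± 0.516 times in the wild-type hearts (SD, n = 3 each). Since 81.4% of the exon length of Cpt1b also lies in exons of the overlapping gene Gm44502 on the same strand, reads of Cpt1b can be lost or given to both. Cpt2, the inner transferase, was on average the most abundant shuttle gene per length, though Crat was higher in knock-in replicate 2 and wild-type replicate 3, with 240.4, 187 and 231 TPM in the knock-in and 213, 212 and 192 TPM in the wild-type hearts (log2 fold change 0.11 ± 0.11). The carnitine transporter Slc22a5 had −0.020 ± 0.16 and the carnitine acetyltransferase Crat −0.040 ± 0.09.

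The pair that sets malonyl-CoA had log2 fold changes of opposite sign, and neither had an unadjusted p under 0.05. Acacb, the acetyl-CoA carboxylase of the mitochondrial surface that makes malonyl-CoA, had −0.15 ± 0.12 (SE). Mlycd, the decarboxylase that removes it, had 0.09 ± 0.11. Mlycd stood at 89.9, 84.3 and 94.2 TPM in the knock-in and 86.3, 95.6 and 73.3 TPM in the wild-type hearts, which overlap.

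The 4 acyl-CoA dehydrogenases, which start each turn on chains of very long, long, medium and short length, had positive log2 fold changes within a narrow range, and 0 had an unadjusted p under 0.05. They were 0.18 ± 0.09 for Acadvl, 0.12 ± 0.08 for Acadl, 0.19 ± 0.11 for Acadm and 0.15 ± 0.11 for Acads (SE). Acadl was the most abundant per length, at 1189, 1214 and 1231 TPM in the knock-in and 1144, 1184 and 1065 TPM in the wild-type hearts. The knock-in values of Acadl and of Acadvl lay above all wild-type values, while those of Acadm and Acads overlapped them. Acadvl shares 42.9% of its exon length with Dvl2 on the other strand. Dvl2 had 39 to 66 counts per heart, beside 13711 to 17877 for Acadvl.

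For the steps after the dehydrogenases, 2 of 5 genes had an unadjusted p under 0.05, Acaa2 and Hadha. Acaa2, the mitochondrial thiolase (ENSMUSG00000036880), had 911, 1019.6 and 959.5 CPM in the knock-in hearts, against 764, 802 and 721 CPM in the wild-type hearts. The groups did not overlap (log2 fold change 0.34 ± 0.09, SE; adjusted p = 0.206). Hadha, the alpha subunit of the mitochondrial trifunctional protein, which hydrates and dehydrogenates long chains, had 1219, 1367 and 1302 CPM in the knock-in and 1044, 1064 and 1144 CPM in the wild-type hearts. These did not overlap either (0.26 ± 0.09, adjusted p = 0.350). Hadhb, the beta subunit with the thiolase activity, had 1510.0, 2059 and 1752 CPM in the knock-in and 1317, 1557 and 1585 CPM in the wild-type hearts, with 1 knock-in value inside the wild-type range (0.26 ± 0.12, adjusted p = 0.538). The ratio of Hadhb to Hadha per length was 1.81 ± 0.178 in the knock-in and 1.81 ± 0.135 in the wild-type hearts (SD, n = 3 each). Hadh, the dehydrogenase for shorter chains, had 0.15 ± 0.11, and Echs1, the hydratase for shorter chains, −0.069 ± 0.12.

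Hadha and Hadhb lie head to head on chromosome 5, and their RefSeq start sites are 273 bases apart (GRCm38.p6). The 250 bases before the start of Hadhb, chr5:30155003-30155252 on the plus strand, thus fall in the stretch between both RefSeq starts. In GENCODE the starts are 86 bases apart, so part of these 250 bases lies within Hadha there. They are printed because both subunits have nearly the same log2 fold change, and whether this stretch bears on it was not tested. Capitals mark the GC box GGGCGG, read on either strand.
Hadhb: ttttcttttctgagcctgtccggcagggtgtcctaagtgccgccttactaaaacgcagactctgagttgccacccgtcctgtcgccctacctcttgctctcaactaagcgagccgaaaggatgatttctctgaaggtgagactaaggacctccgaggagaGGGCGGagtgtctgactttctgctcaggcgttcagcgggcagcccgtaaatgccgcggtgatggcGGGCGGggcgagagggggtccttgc

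The isomerases and the reductase for unsaturated fatty acids held the called gene. Ech1 (ENSMUSG00000053898, chromosome 7, 28825217 to 28832247) encodes the mitochondrial isomerase that shifts a pair of double bonds in dienoyl-CoA. It had 1510.0, 1734 and 1647 CPM in the knock-in hearts, against 1096, 1178 and 1053 CPM in the wild-type hearts. The lowest knock-in heart was thus well above the highest wild-type heart, and the means were 1630.2 ± 113 and 1109 ± 63.2 CPM (SD, n = 3 each). No 31-base word of its transcript occurs in another gene. The direction held in each of 17 alternative fits, with log2 fold changes of 0.52 to 0.62. The edgeR call was lost without knock-in replicate 3 (adjusted p = 0.270) and without wild-type replicate 1, 2 or 3 (0.195, 0.146 and 0.144). It was also lost with library totals as the scale (0.0675), with limma-voom (0.0567) and with a length trend removed (0.0521), while DESeq2 gave 9.36e-05 and testing without a low-count filter 3.83e-05.

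Decr1, the mitochondrial dienoyl-CoA reductase that acts with Ech1 on such double bonds, had 449.8, 489 and 457 CPM in the knock-in hearts, against 309.9, 347 and 344 CPM in the wild-type hearts. The groups did not overlap, and the log2 fold change was 0.48 ± 0.09 (SE), with an adjusted p of 0.0799 by edgeR and 0.00223 by DESeq2, and a range of 0.00183 to 0.345 over all alternatives. The enoyl-CoA isomerases Eci1 and Eci2, which move a single double bond into place, had 0.11 ± 0.09 and 0.19 ± 0.10. Their knock-in values also lay above all wild-type values, but with adjusted p of 0.769 and 0.569. Higher groups that did not overlap were found in 8.12% of all tested genes.

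The 250 bases before the RefSeq start of Ech1, chr7:28825088-28825337 on the plus strand of GRCm38.p6, are printed as the promoter of the called gene. In GENCODE the gene starts at 28825217, so part of these 250 bases lies within Ech1 there. Capitals mark its GC boxes, 1 on each strand, and both fall in that part.
Ech1: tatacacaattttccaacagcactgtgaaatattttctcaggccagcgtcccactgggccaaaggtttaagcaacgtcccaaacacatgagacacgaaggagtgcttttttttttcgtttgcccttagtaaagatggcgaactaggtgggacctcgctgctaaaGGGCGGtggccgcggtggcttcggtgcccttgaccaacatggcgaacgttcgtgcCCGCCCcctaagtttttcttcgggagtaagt

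**Figure D3:**
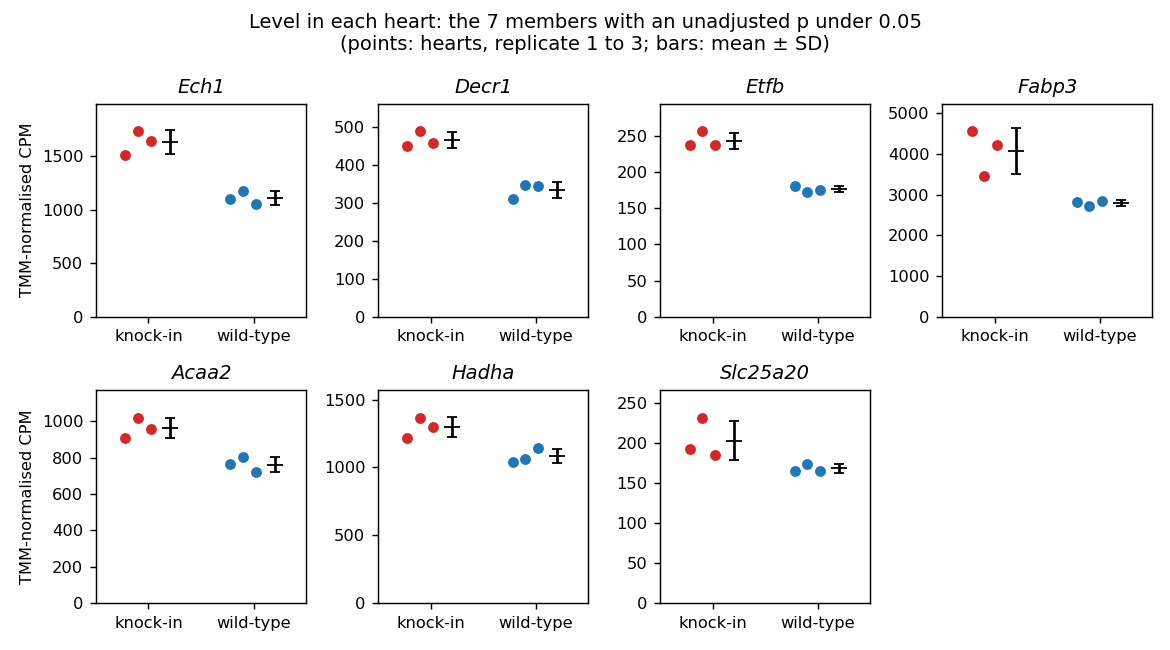
TMM-normalised CPM of the 7 genes with an unadjusted p under 0.05 in each heart (y axes start at 0), knock-in on the left and wild-type on the right of each panel, with the mean ± SD. In each panel the 3 knock-in points lie above the 3 wild-type points, and the gap is widest for Ech1, Decr1, Etfb and Fabp3.

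Of the 3 genes of electron transfer, 1 had an unadjusted p under 0.05, Etfb. Etfb and Etfa encode the beta and alpha subunits of the heterodimer that takes electrons from the acyl-CoA dehydrogenases. Etfb had 238, 257 and 238 CPM in the knock-in hearts, against 181, 173 and 176 CPM in the wild-type hearts. The groups did not overlap, and the log2 fold change was 0.47 ± 0.09 (SE), with an adjusted p of 0.0799 by edgeR and 0.00188 by DESeq2, and a range of 0.00188 to 0.343 over all alternatives. Etfa had 719.6, 836 and 771 CPM in the knock-in hearts and 795, 777 and 800.3 CPM in the wild-type hearts, with the wild-type values inside the knock-in range (−0.028 ± 0.09). The ratio of Etfb to Etfa per length was 0.520, 0.485 and 0.486 in the knock-in and 0.359, 0.352 and 0.347 in the wild-type hearts. An exact permutation test gave p = 0.1, the lowest that 3 against 3 hearts allows, and 0.4 after adjustment over 4 ratios. The pair was set side by side after its values were seen, so the ratio is a description only. In GENCODE, 53.0% of the exon length of Etfb also lies in Gm45233 on the same strand, which had 2 counts in 1 heart and 0 in the others. How reads that overlap both were counted is not stated, so the level of Etfb is uncertain. Etfdh, the oxidoreductase that passes the electrons to ubiquinone, had 0.16 ± 0.09, and its knock-in values of 595 to 696 CPM lay above the wild-type values of 567 to 580.2 CPM.

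Promoters of Etfb and Etfa are shown as those of the subunits of 1 heterodimer, 250 bases before each RefSeq start, from chr7:43443822-43444071 on the plus strand and chr9:55512244-55512493 on the minus strand of GRCm38.p6. Capitals mark the CCAAT box on either strand, which each holds at 2 places.
Etfb: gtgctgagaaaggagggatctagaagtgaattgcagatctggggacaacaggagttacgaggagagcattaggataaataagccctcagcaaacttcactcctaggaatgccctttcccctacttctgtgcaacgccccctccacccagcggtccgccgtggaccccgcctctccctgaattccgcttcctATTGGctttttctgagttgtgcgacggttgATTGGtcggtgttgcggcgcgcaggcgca
Etfa: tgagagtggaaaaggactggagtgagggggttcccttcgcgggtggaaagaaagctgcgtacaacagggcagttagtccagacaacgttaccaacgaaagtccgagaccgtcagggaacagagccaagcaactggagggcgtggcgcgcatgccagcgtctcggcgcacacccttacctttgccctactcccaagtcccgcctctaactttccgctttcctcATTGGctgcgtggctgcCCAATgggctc

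The peroxisomal genes showed no difference at an unadjusted p under 0.05. Acaa1a, the peroxisomal thiolase, stood at 34.3, 35.7 and 34.8 TPM in the knock-in and 39.1, 36.7 and 29.2 TPM in the wild-type hearts (log2 fold change 0.015 ± 0.11, SE). Ehhadh, the peroxisomal bifunctional enzyme, had −0.20 ± 0.15.

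Levels per length spanned 4 orders of magnitude. Fabp3 stood far above the others at 10531 ± 1420.0 TPM in the knock-in and 7295 ± 135 TPM in the wild-type hearts (SD, n = 3 each). Ech1, Acaa2, Lpl and Acadl followed at 1093 to 1518 TPM in the knock-in hearts and 1044 to 1318 TPM in the wild-type hearts. In the knock-in hearts Ech1 stood highest of these 4 on average, at 1518 ± 115 TPM beside 1352 ± 83.9 TPM for Acaa2. In the wild-type hearts Lpl did, at 1318 ± 155 TPM beside 1131 ± 60.3 TPM for Acadl. Ech1 lay above Acaa2 in each of the 3 knock-in hearts, and Lpl above Acadl in each of the 3 wild-type hearts. The closest values of Lpl and Acadl there were 1163 and 1144 TPM, in wild-type replicate 1. The order of these neighbours was not tested. The lowest genes were Acot1, at 2.27 ± 0.558 TPM in the knock-in and 1.98 ± 0.290 TPM in the wild-type hearts, and Angptl4, at 1.06 ± 0.426 TPM in the knock-in and 0.851 ± 0.231 TPM in the wild-type hearts. The mitochondrial thiolase Acaa2 stood far above the peroxisomal Acaa1a in every heart.

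**Figure D4:**
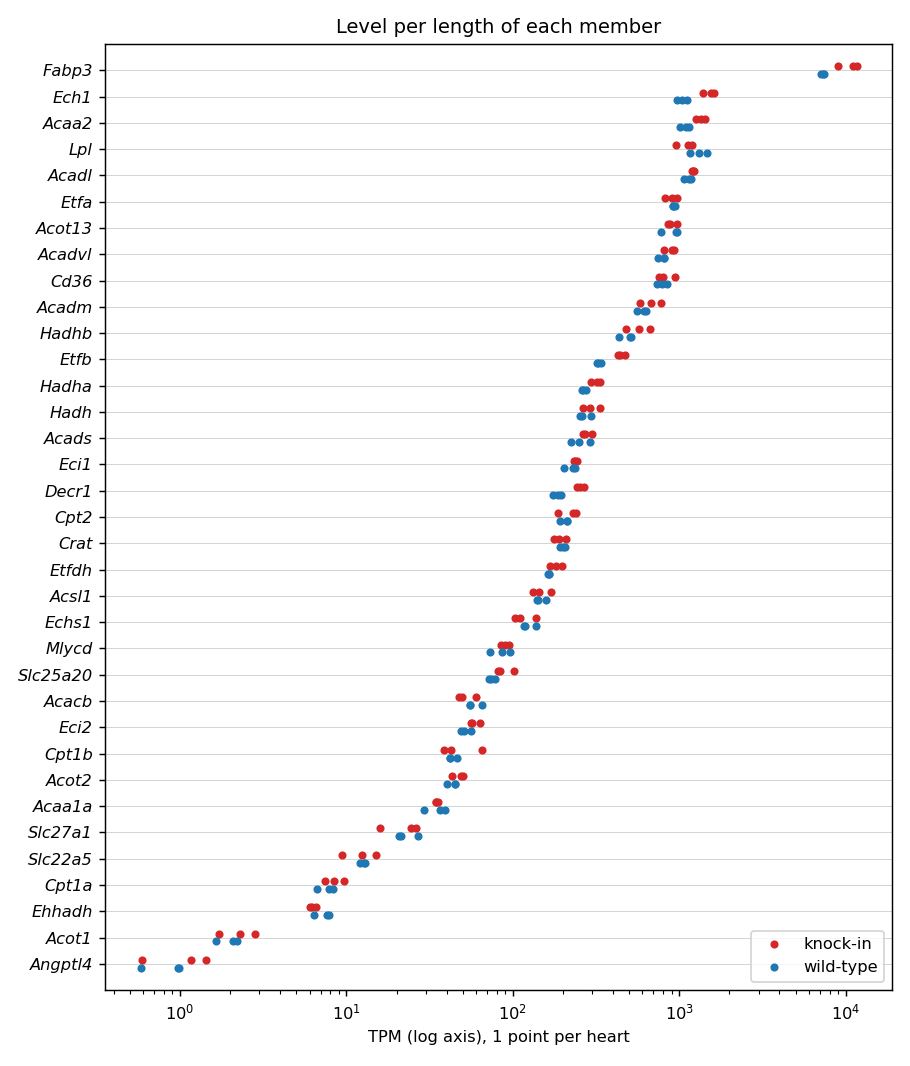
TPM of each of the 35 genes in each heart (log axis), ordered by the mean over all hearts, with knock-in points drawn above wild-type points in each row. Fabp3 is highest in all 6 hearts, and the genotypes overlap in all rows but those of Fabp3, Slc25a20, Acadvl, Acadl, Hadha, Acaa2, Ech1, Eci2, Decr1, Etfb and Etfdh.

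RefSeq promoter windows were found for 28 of the 35 genes, 31 windows in all. The 250 bases before each start were searched on both strands for short words, and each share is given beside that of all 32851 windows of the same length. Those 32851 windows were not limited to the tested genes, and a comparison with windows of tested genes only was not made. The GC box GGGCGG was in 20 of the 31 windows (64.5%, against 32.7% of all) and CCAAT in 16 (51.6%, against 33.8%). The word AGGTCA, which nuclear receptors such as PPAR and ERR bind, was in 5 windows (16.1%, against 14%), those of Acadm, Acadvl, Cd36, Cpt1a and Echs1. Its direct repeat with 1 spacer base (DR1) and the longer word TCAAGGTCA, both of which contain AGGTCA, were in 0 windows, against 0.0335% and 0.387% of all. Words this rare would be absent from most sets of 31 windows, so the 0 shows no lack of them. TATAAA was in 1 window, that of Acacb (3.23%, against 12.4%), and CACGTG in 1, that of Slc27a1 (3.23%, against 6.02%). None of the windows of Ech1, Etfb and Fabp3 held AGGTCA. A match describes letters only, and the search covers no enhancer or intron.

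Other genes of fatty acid handling were examined as 7 lists of 80 genes, of which 70 were tested. edgeR called 0 of them, beside 0.297% of all tested genes. DESeq2 called 2, both higher, which is a larger share than the 0.556% called higher among all genes it tested. At an unadjusted p under 0.05, 4 had higher and 5 had lower levels, beside 4.74% and 5.23% of all tested genes. These unadjusted counts are near the background. The median log2 fold change of the 70 was −0.015, with 33 positive and 37 negative. Among further uptake and binding genes, Dbi, the acyl-CoA-binding protein, had 114, 112 and 102 CPM in the knock-in hearts, against 80.5, 73.4 and 74.3 CPM in the wild-type hearts. The groups did not overlap (log2 fold change 0.53 ± 0.10, SE; adjusted p = 0.0667 by edgeR and 0.0017 by DESeq2, with 0.0017 to 0.275 over all alternatives). Got2, a mitochondrial aminotransferase that also serves as a fatty acid-binding protein of the membrane, had 0.24 ± 0.09, though 57.0% of its words occur in other genes, and Vegfb, a growth factor tied to fatty acid uptake in endothelium, −0.36 ± 0.14. In the list of targets of the receptor PPAR outside the pathway, Cidea, a lipid droplet protein, had 37.0, 31.6 and 32.9 CPM in the knock-in hearts, against 23.2, 21.9 and 21 CPM in the wild-type hearts (0.62 ± 0.11; adjusted p = 0.0667 by edgeR and 0.00344 by DESeq2, with 0.00147 to 0.288 over all alternatives).

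The remaining lists had 1 gene each at an unadjusted p under 0.05. Acot11, a further thioesterase, had a log2 fold change of −0.51 ± 0.14 (SE), and 20.9% of its exon length overlaps Fam151a on the other strand. Slc25a29, a mitochondrial carrier of basic amino acids that can also take acylcarnitine, had −0.65 ± 0.19. Gcdh, the glutaryl-CoA dehydrogenase of lysine breakdown, had −0.38 ± 0.11, while the enzyme hands its electrons to the same flavoprotein. Amacr, a racemase of branched acyl-CoA, had −0.30 ± 0.11, and Prkag2, a subunit of the AMP-activated kinase that inactivates acetyl-CoA carboxylase, 0.32 ± 0.12. None of these 5 was called, with adjusted p between 0.233 and 0.381. Per list, the median was 0.14 in uptake and binding, −0.078 in activation and thioesterases, −0.079 in carnitine synthesis and transport and −0.081 in other mitochondrial acyl-CoA enzymes. It was −0.030 in peroxisomal oxidation, 0.073 in malonyl-CoA and its control and 0.30 over the 5 tested PPAR targets, of which Cidea alone had groups that did not overlap.

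Transcript length moved with the fold changes. The 18 genes with longest transcripts of 721 to 2933 bases had a median log2 fold change of 0.18, and the 17 of 2959 to 8788 bases one of 0.032. Across the 35 genes Spearman's rho of length and log2 fold change was −0.38, and across 12757 tested genes it was −0.11. Level also moved with the fold changes, with a rho of 0.22 for TPM across the 35 genes. For log CPM across 12777 tested genes it was 0.11. The 35 genes were not compared with genes of similar level. Genes of a library share its depth and quality and are not independent. In the 3193 tested genes with the shortest transcripts the median deviation was 0.066, −0.029 and 0.036 in knock-in replicates 1 to 3, and 0.045, 0.059 and −0.14 in wild-type replicates 1 to 3. Wild-type replicate 3 thus had the lowest level of short transcripts, and in the 3189 genes with the longest it had the highest, 0.15. With a length trend removed from each library, the median of the 35 genes was 0.15 and 10 had an unadjusted p under 0.05, but 0 were called. Without wild-type replicate 3 the median was 0.14. The summed cardiomyocyte markers, given above, differed in range between the genotypes only with Myl2 included. Their part in the values of these genes was not tested. All 5 red blood cell markers were called higher in the knock-in hearts, at 1447 to 1916 CPM in sum against 463 to 635 CPM in the wild-type hearts, and the 9 macrophage markers all had negative log2 fold changes, with 1 called, at 261 to 281 CPM in sum in the knock-in and 338 to 395 CPM in the wild-type hearts. The 8 smooth muscle and pericyte markers, 4 positive and 4 negative, summed to 570 to 588 CPM in the knock-in and 662 to 727 CPM in the wild-type hearts. Of them Acta2 alone was called, at −1.24. Sums overlapped for the endothelial markers, 534 to 778 CPM in the knock-in and 565 to 765 CPM in the wild-type hearts. They also did for the fibroblast markers, 645 to 795 CPM and 704 to 734 CPM. The part of these lists was not tested either.

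**Figure D5:**
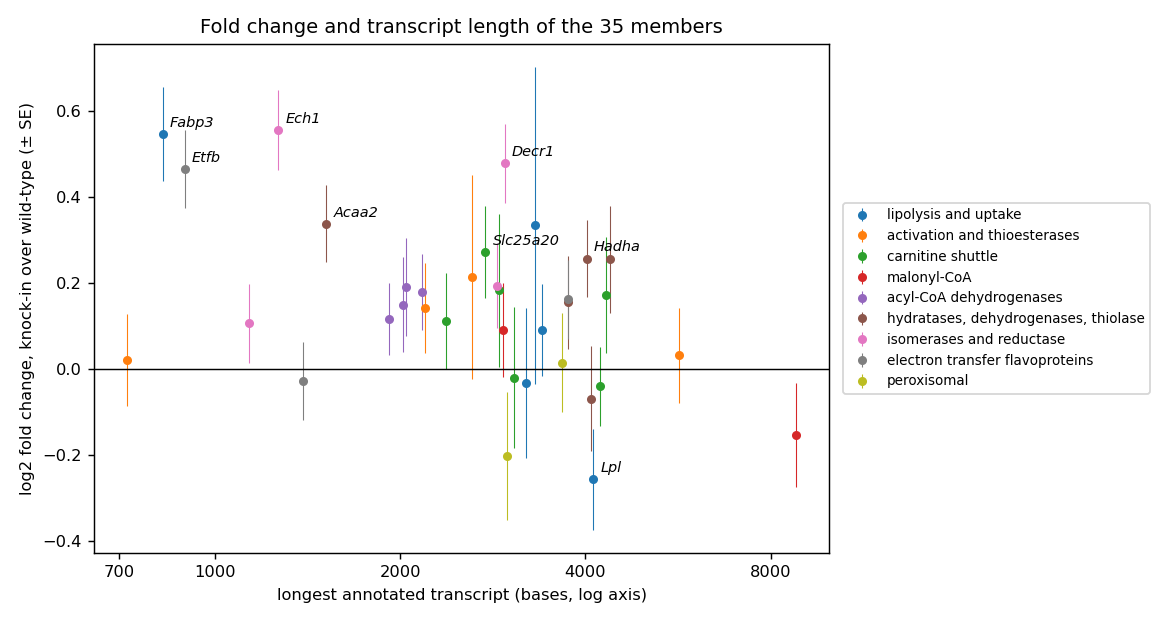
Log2 fold change (y axis, knock-in over wild-type, bars are SE) against the length of the longest annotated transcript (x axis, log scale) for the 35 genes, coloured by role. Fabp3, Etfb, Ech1 and Acaa2 lie at the upper left with transcripts of 823 to 1516 bases, Decr1 stands high at 2959 bases, and Lpl and Acacb, with long transcripts, lie below 0.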

How the data were processed

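Heart RNA was isolated with RNeasy Mini columns and libraries were built with NEBNext Ultra II RNA reagents, per the labels' protocols. Deposited values are whole-number counts per gene, deposited by the authors without normalization, 1 column per heart. The submitters' processing notes list GRCm38.p6, STAR, Subread 1.5.2, featureCounts and DESeq2, without saying what each did. Strand setting, annotation release and handling of multi-mapping reads: not given in the sources used here, so counts of overlapping or near-identical genes are uncertain. Columns were matched to samples by their descriptions. Gene names, positions and exon lengths came from GENCODE release M21 (GRCm38), which held 49056 of the 49315 identifiers. Promoter sequences came from RefSeq (GRCm38.p6).

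Genes were tested on all 6 libraries with edgeR 4.0.16 (R 4.3.3): filterByExpr, TMM scaling, robust glmQLFit and glmQLFTest on genotype, no covariate, with Benjamini-Hochberg adjustment over 12777 genes. Called means an adjusted p under 0.05, the SE was derived from the fold change and the F statistic (|log2 fold change| over root F), and TPM use all exons of a gene. Alternatives were DESeq2 1.42.0, limma-voom (limma 3.58.1), other scalings and filters and each library left out, and, chosen after seeing the data, removal of length and GC trends. Shared sequence is the percentage of 31-base words in the longest transcript that also occur in transcripts of other genes, on either strand. The functions were tested on simulated data. The genes and lists were chosen with earlier results of these data known. Every one of the 35 genes is named. Values in each heart are given for those with an unadjusted p under 0.05 and the most abundant gene per length of each role. They are also given for the pairs Cpt1a and Cpt1b and Acot1 and Acot2. Txnip is given as the targeted gene, and its count cannot show which hearts carry the mutation. From each further list up to 4 genes with an unadjusted p under 0.05 are named. Heart-by-heart values of Lpl, Hadhb and Etfdh and the ratios of paired genes are given by a choice made with the values in view. Replicates are hearts with no stated pairing, and libraries of the same genotype differed by more than counting error in each pair (chi-square over degrees of freedom, 7.17 to 27.0). Depth of 14146048 to 15620476 counts makes 3 counts, taken as the floor of detection, equal to 0.192 to 0.212 CPM, and this covers counting error only.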

Additional observations from a re-analysis of the deposited data

How the results depend on the processing

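All 35 genes were compared under 17 alternative fits, and 26 of them kept their direction in each; 560 of the 595 values kept both direction and side of the threshold. The count of called genes among the 35, 1 as reported, was 4 with DESeq2, without a filter and at an adjusted p under 0.1, 3 with a GC trend removed, and 0 with limma-voom, library totals and a length trend removed. Leaving out 1 library gave 0 (without knock-in replicate 3 or any wild-type library) to 2 (without knock-in replicate 2, Ech1 and Fabp3). Over all genes the 38 calls (14 higher, 24 lower) became 139 with DESeq2 (66 and 73), 317 without a filter (144 and 173), 75 at an adjusted p under 0.1 (28 and 47) and 18 with limma-voom (7 and 11). With a GC trend removed, 25 were higher. Dropping single libraries moved the total between 5 and 174, the higher calls between 2 and 88 and the lower between 3 and 86. The extremes came on dropping wild-type replicate 2 and knock-in replicate 2, and the total was 6 on dropping knock-in replicate 3, 14 on dropping wild-type replicate 1 and 13 on dropping wild-type replicate 3. The cause of these moves was not tested. The median of the 35 genes stayed within 0.11 to 0.19 and their count at an unadjusted p under 0.05 within 6 to 10.

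The sign of 9 genes changed, in Cpt1b (0.18 as reported) only on dropping knock-in replicate 2. Leaving out 1 library, Slc27a1 ranged from −0.16 to 0.16, Acsl1 from −0.065 to 0.11, Acot13 from −0.062 to 0.071, Slc22a5 from −0.19 to 0.15 and Cpt1b from −0.073 to 0.33. Crat ranged from −0.092 to 0.015, Echs1 from −0.20 to 0.022, Etfa from −0.076 to 0.032 and Acaa1a from −0.089 to 0.095. With library totals as the scale Acsl1 was −0.007, Acot13 −0.020 and Acaa1a −0.028; with a length trend removed Acot13 was −0.043, and with a GC trend removed Slc27a1 was 0.012. No paired analysis was possible because the labels give no replicate numbers or shared litters. Genes with few counts, such as Angptl4 and Acot1, have standard errors above 0.2 on the log2 scale, so only large differences were detectable in them at this depth.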
